A study of Mus musculus with 6 samples.

Results

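The genes of MHC class I antigen presentation were followed in 6 mouse liver tumour cell lines. The set was chosen by gene name and holds 10 of the 53465 genes counted: the heavy chains H2-K1 and H2-D1, their common light chain B2m, the peptide transporter subunits Tap1 and Tap2, the loading chaperone Tapbp, the immunoproteasome subunits Psmb8, Psmb9 and Psmb10, and the transcriptional activator Nlrc5. All 10 were in the count table, and 6 of them passed the filter on low counts and entered the comparison between groups. Myc_Utx stands for 3 lines in which Kdm6a, also called Utx, had been edited (Myc;sgKdm6a), and Myc_p53 for 3 comparison lines with another edited tumour suppressor gene.

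Every line came from a C57BL/6 mouse. According to the study's methods, adult female mice received a transposon that expresses Myc from an EF1a promoter together with a plasmid for transient expression of Cas9 and the guide RNA, by hydrodynamic injection into the tail vein, so that hepatocytes took up both. Tumour cells were then grown on collagen as primary cell lines, and Myc overexpression was common to all of them. No line without an edited tumour suppressor was measured here, so that the effects of the edit in Myc_Utx and of the edit in Myc_p53 cannot be told apart. The lines were independent, but each is a tumour line of its own, and its makeup of clones was not given.

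MHC class I molecules show fragments of proteins made inside the cell to CD8+ T cells. The proteasome cuts proteins into peptides, and in cells exposed to interferon gamma the inducible subunits Psmb8, Psmb9 and Psmb10 take the places of Psmb5, Psmb6 and Psmb7 in its catalytic core. Tap1 and Tap2 form the pump that carries peptides into the endoplasmic reticulum, where Tapbp (tapasin) holds empty heavy chains next to the pump, and heavy chain, light chain and peptide leave together for the cell surface. Nlrc5 has no DNA-binding domain of its own and acts on class I promoters through an assembly of RFX, CREB/ATF and NF-Y proteins, while NF-kB and IRF factors bind to neighbouring sites. Hepatocytes normally carry little class I, and interferon raises it.

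Because the heavy chain and light chain genes are known for a shared promoter layout, their upstream sequences are shown here, taken from RefSeq on GRCm38.p6. Of the 10 genes, 8 had a promoter in that collection, and Tap2 and Nlrc5 did not. The 250 bases before each start were searched on both strands for 5 motifs whose letters were chosen with the sequences in view: a kB-like motif (GGGNNTTCC or GGGNNNTTCC), the letters TGACG as the core of a CRE site, the box CCAAT to which NF-Y binds, an IRF-like motif (AANNGAAA) and a GAS-like motif (TTCNNNGAA). Capitals mark the matches, on either strand. The stretch before the upstream start of H2-K1 lies on the minus strand at chr17:34000348-34000597, and that before B2m on the plus strand at chr2:122147437-122147686.
H2-K1: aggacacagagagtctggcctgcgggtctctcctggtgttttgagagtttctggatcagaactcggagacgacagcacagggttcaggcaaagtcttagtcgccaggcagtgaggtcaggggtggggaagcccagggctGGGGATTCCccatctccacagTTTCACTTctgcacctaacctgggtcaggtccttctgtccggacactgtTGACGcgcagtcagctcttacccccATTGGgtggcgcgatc
B2m: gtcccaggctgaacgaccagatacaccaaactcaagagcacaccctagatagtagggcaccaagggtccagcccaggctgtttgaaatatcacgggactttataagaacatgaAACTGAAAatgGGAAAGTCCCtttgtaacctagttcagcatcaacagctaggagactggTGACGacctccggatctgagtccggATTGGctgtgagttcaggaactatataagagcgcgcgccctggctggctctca

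H2-K1, H2-D1 and B2m each held the kB-like motif, the IRF-like motif, the CRE core and CCAAT. Side by side, the kB-like and IRF-like letters of the heavy chains, H2-K1 at chr17:34000430-34000458 on the minus strand and H2-D1 at chr17:35262923-35262951 on the plus strand, lay in the same order, whereas in B2m (chr2:122147550-122147570) the IRF-like letters came first and each motif was on the strand opposite to that in the heavy chains.
H2-K1: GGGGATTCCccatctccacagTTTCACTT
H2-D1: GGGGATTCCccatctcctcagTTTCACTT
B2m: AACTGAAAatgGGAAAGTCCC
The stretch that begins with the CRE core and ends with CCAAT, read on the opposite strand as ATTGG, was 30 bases long in all 3 genes, at chr17:34000359-34000388 for H2-K1, chr17:35262993-35263022 for H2-D1 and chr2:122147609-122147638 for B2m.
H2-K1: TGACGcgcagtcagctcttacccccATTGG
H2-D1: TGACGcgctggcaggtctcactatcATTGG
B2m: TGACGacctccggatctgagtccggATTGG
By their RefSeq starts, Tap1 and Psmb9 begin 225 bases apart on opposite strands and share what lies between. That stretch held a CRE core and a CCAAT, printed here on the strand of Tap1 (chr17:34187462-34187482 and chr17:34187326-34187346), with none of the other 3 motifs.
Tap1, CRE core: gagacaggTGACGacagaggg
Tap1, CCAAT: tcggctttCCAATcagcggct
Psmb8 held a GAS-like match and Tapbp held CCAAT, while none of the 5 motifs was found before Psmb10. Single matches of this kind are frequent. Among 32851 promoter windows of the same length, 8.26% held the kB-like motif, 17.8% the CRE core, 33.8% CCAAT, 21.3% the IRF-like motif and 7.02% the GAS-like motif, and 0.618% held the kB-like motif, the CRE core and CCAAT together. A match is a description of letters, and no binding was measured.

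Total counts ranged from 4656103 to 6937497 per line, and the class I set took 0.0355% to 0.0465% of them in 5 lines and 0.0933% in Myc_p53 2. Levels are given as CPM, the counts of a gene per 1000000 counts of its library, after scaling by TMM (trimmed mean of M values). The floor, the 3 counts that a count of 0 still allows, corresponded to 0.428 to 0.668 CPM and covers counting error only. Kdm6a mRNA overlapped between the groups, at 39.7, 45.7 and 49.0 CPM in Myc_Utx and 69.5, 64.5 and 42.5 CPM in Myc_p53, and a small edit that disrupts the protein need not lower the mRNA. Since the methods paragraph on sequencing speaks of Mll3-edited lines, Kmt2c (Mll3) was looked at too, and its mRNA was present in all lines at 69.6, 77.0 and 86.6 CPM in Myc_Utx and 148, 116 and 121 CPM in Myc_p53. It was lower in Myc_Utx without overlap (log2 fold change -0.73, SE 0.15, edgeR adjusted p = 0.0289), and whether Kmt2c was edited in any line was not tested. Hepatocyte markers were nearly absent in every line, but their sums did not overlap between the groups. The 9 genes summed to 2.89 to 8.43 CPM in Myc_Utx, and each Myc_p53 line lay above that range, at up to 21.7 CPM. Albumin (Alb), which alone was tested, overlapped and reached at most 4.87 CPM (edgeR adjusted p = 0.578). Chosen after their values were seen, Hnf4a and Trf were lower in every Myc_Utx line, whereas Apoa1 was higher, at 5 counts or fewer. The difference in sums was not tested. Two-sided exact permutation tests cannot go below p = 0.1 with 3 lines against 3, so that tests of single genes rest on the edgeR quasi-likelihood fit over 11510 genes, with Benjamini-Hochberg adjustment.

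The class I genes spanned a wide range of levels. Per kilobase of transcript, the median level over the 6 lines was 228 CPM per kb for B2m, 31.4 for H2-D1, 22.7 for H2-K1, 19.8 for Tapbp, 15.7 for Psmb10, 1.90 for Tap1, 0.474 for Tap2, 0.113 for Psmb8, 0.0736 for Psmb9 and 0.0317 for Nlrc5. B2m lay above all heavy chain values in every line, and the ranges of H2-D1, H2-K1, Tapbp and Psmb10 ran into each other. Class I light and heavy chains, tapasin and Psmb10 were thus transcribed in all lines, whereas Psmb8, Psmb9 and Nlrc5 were near the detection limit in most.

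No member of the class I set passed an adjusted p of 0.05 between Myc_Utx and Myc_p53. Of 6 genes tested, 0 were higher and 0 were lower in Myc_Utx, where 6.99% of all genes tested were higher and 7.69% lower. At an unadjusted p under 0.05, Tap1 was higher and Tapbp was lower, against 16.6% and 18.3% of all genes. DESeq2 called 0 members higher and 1 lower, Tapbp, against 11.0% and 13.2% of all genes. Among the 6 members tested, the same 2 genes were those whose groups did not overlap, Tap1 with all Myc_Utx lines above and Tapbp with all Myc_Utx lines below, where 21.1% of all genes did not overlap in the higher direction and 20.9% in the lower. The median log2 fold change of the 6 members was -0.30, beside -0.01 for all genes tested.

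**Figure D1:**
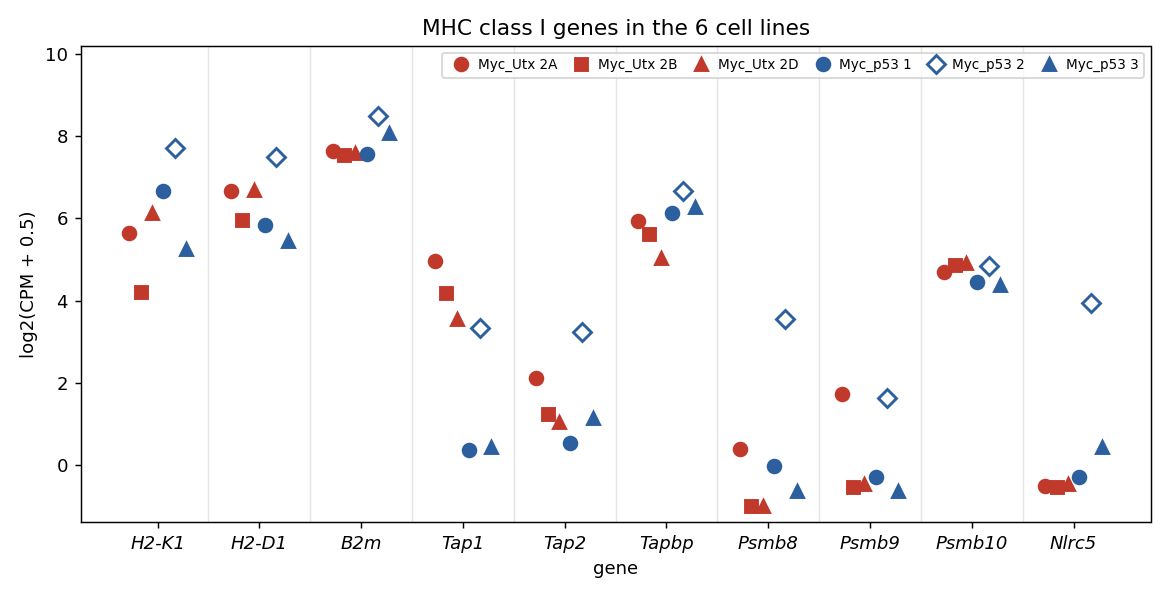
Level of each of the 10 class I genes in every cell line, as log2(CPM + 0.5), with red symbols for Myc_Utx, blue symbols for Myc_p53 and an open diamond for Myc_p53 2. Myc_p53 2 is the highest point for 7 of the 10 genes, and Tap1 is the gene whose 3 Myc_Utx points all lie above the Myc_p53 points.

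Nlrc5, the transcriptional activator in the set, was all but silent in 5 lines and present in 1. Its counts were 1, 1 and 1 in Myc_Utx 2A, 2B and 2D and 2, 80 and 6 in Myc_p53 1, 2 and 3, or 14.8 CPM in Myc_p53 2 and 0.855 CPM at most elsewhere. In CPM, all Myc_Utx lines were below all Myc_p53 lines, though the values outside Myc_p53 2 and 3 came from 1 or 2 counts. It did not pass the filter on low counts and was not tested. Leaving the filter out gave an adjusted p of 0.0868 in edgeR. Myc_p53 2 held 80 of the counts behind it, and no value for Nlrc5 was obtained without that line.

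The classical heavy chains differed more among lines than between groups. H2-K1 stood at 49.5, 18.0 and 69.0 CPM in Myc_Utx 2A, 2B and 2D and at 102, 210 and 37.8 CPM in Myc_p53 1, 2 and 3. The groups overlapped, since Myc_p53 3 lay below 2 of the Myc_Utx lines. The log2 fold change of H2-K1 was -1.36 (SE 0.70, 95% interval -3.05 to 0.34, edgeR adjusted p = 0.219). It was -0.62 without Myc_p53 2 (adjusted p = 0.524) and down to -1.78 with another line left out, and never passed. H2-D1 stood at 101, 61.4 and 102 CPM in Myc_Utx and at 57.2, 181 and 42.9 CPM in Myc_p53. Here the Myc_Utx lines lay between Myc_p53 2 above and Myc_p53 1 and 3 below. Its log2 fold change was -0.09 (SE 0.56, 95% interval -1.43 to 1.25, edgeR adjusted p = 0.921), and without Myc_p53 2 it was 0.82 (adjusted p = 0.0987).

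Set against each other within a line, the 2 heavy chains did separate the groups. H2-D1 over H2-K1, per kilobase, was 2.06, 3.46 and 1.49 in Myc_Utx 2A, 2B and 2D and 0.569, 0.873 and 1.15 in Myc_p53 1, 2 and 3. H2-D1 was thus above H2-K1 in all Myc_Utx lines and below it in 2 of the Myc_p53 lines. The mean log2 ratio was 1.14 ± 0.61 (SD, n = 3) in Myc_Utx and -0.27 ± 0.51 (SD, n = 3) in Myc_p53. This pair was looked at after the values of both genes were known and was given no test. H2-K1 and H2-D1 are similar in sequence: 8.11% of all 50-base windows in the longest H2-K1 transcript and 14.3% of those of H2-D1 also occur in transcripts of other genes, so that reads there may have been counted for another gene or not at all.

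B2m, the light chain, was the most even gene of the set next to Psmb10. It was at 198, 187 and 194 CPM in Myc_Utx 2A, 2B and 2D and at 188, 361 and 270 CPM in Myc_p53 1, 2 and 3. All Myc_Utx lines and Myc_p53 1 were within a narrow range, and Myc_p53 2 and 3 lay above it. The log2 fold change of B2m was -0.50 (SE 0.23, 95% interval -1.05 to 0.05, edgeR adjusted p = 0.175), and it passed without Myc_p53 1 (-0.72, adjusted p = 0.0482) but was -0.25 without Myc_p53 2 (adjusted p = 0.337), and it did not pass without any of the other lines. Heavy chain over light chain ratios overlapped between the groups for both H2-K1 and H2-D1.

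The subunits of the peptide pump had the same order of lines within each group, but differed in how the groups compared. Tap1 was at 30.9, 17.8 and 11.1 CPM in Myc_Utx 2A, 2B and 2D and at 0.790, 9.64 and 0.855 CPM in Myc_p53 1, 2 and 3, from counts of 155, 95 and 50 against 5, 52 and 6. Each Myc_Utx line lay above each Myc_p53 line, though Myc_p53 2 came close to Myc_Utx 2D. The log2 fold change of Tap1, 2.43 (SE 1.01, 95% interval 0.01 to 4.85), had an edgeR adjusted p of 0.142. Without Myc_p53 2 it was 4.57 with an adjusted p of 0.0172, in a fit that called 7.01% of all genes higher. Tap2 was at 3.79, 1.87 and 1.56 CPM in Myc_Utx and at 0.948, 8.90 and 1.71 CPM in Myc_p53. Its groups overlapped, Myc_p53 2 being highest, and its counts of 6 to 48 were too low in most lines for the filter.

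Tap1 over Tap2 accordingly differed between the groups within every line. The ratio per kilobase was 5.63, 6.56 and 4.93 in Myc_Utx 2A, 2B and 2D and 0.575, 0.748 and 0.345 in Myc_p53 1, 2 and 3. All Myc_Utx lines were above all Myc_p53 lines, Myc_p53 2 included, and the ratio was above 1 in Myc_Utx and below 1 in Myc_p53. The mean log2 ratio was 2.503 ± 0.206 (SD, n = 3) in Myc_Utx and -0.92 ± 0.57 (SD, n = 3) in Myc_p53, a difference of 3.42. Tap1 made up 89.1%, 90.5% and 87.7% of the counts of the pair in the Myc_Utx lines, with 95% exact Clopper-Pearson intervals no lower than 76.3%. In Myc_p53 it made up 45.5%, 52.0% and 33.3%, with intervals that reached at most 76.6% in the line with the fewest counts. With the transcript lengths given with the counts (5476 bases for Tap1, 3781 for Tap2), equal levels per kilobase correspond to 59.2% of the counts. The intervals of Myc_p53 1 and 2 included this share, and that of Myc_p53 3 ended at 59.0%. A shortfall of Tap1 was thus not detectable in Myc_p53 1 and 2 at this depth. The longest transcripts searched for shared windows were 3911 and 3442 bases, and the share depends on the length used. As for the heavy chains, the pair was chosen after its values were seen and received no test. In the GENCODE gene positions, where Psmb9 begins further upstream than in RefSeq, Tap1 and Psmb9 overlap by 212 bases on opposite strands. Tap2 overlaps Gm15821 by 3148 bases and Gm20496 by 1923, also on opposite strands. So do B2m and Patl2 (5398 bases), Psmb8 and Gm20496 (2139), Psmb10 and Gm16156 (2710), and Psmb7 and Nek6 (6571). Whether strand was used in counting was not stated. Reads from such parts may have been lost or counted for the other gene, and the effect on levels and ratios was not tested.

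Tapbp, which tethers empty class I molecules to the pump, was the gene with the smallest adjusted p. It was at 60.8, 48.5 and 32.3 CPM in Myc_Utx 2A, 2B and 2D and at 69.8, 102 and 76.9 CPM in Myc_p53 1, 2 and 3. Every Myc_Utx line was below every Myc_p53 line. The log2 fold change of Tapbp was -0.81 (SE 0.27, 95% interval -1.45 to -0.17), with an adjusted p of 0.0860 in edgeR and 0.0304 in DESeq2. Tapbp lies across 3422 bases of Zbtb22 on the same strand and 1207 bases of an antisense gene on the other, and reads from the shared parts cannot be told apart.

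**Figure D2:**
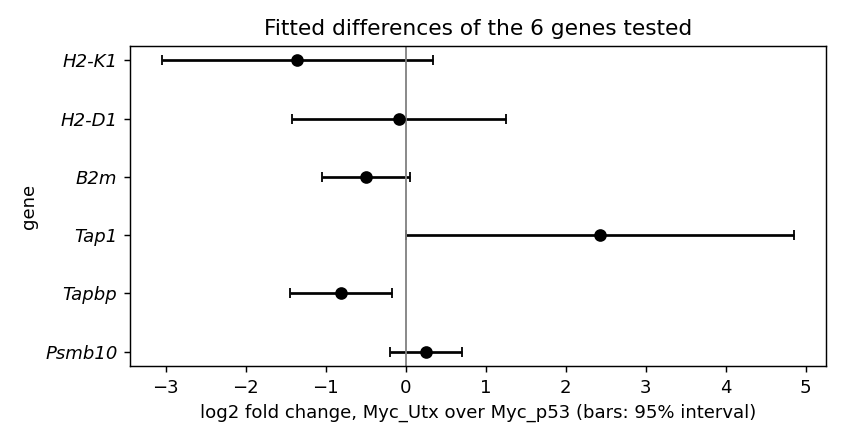
Fitted log2 fold change (Myc_Utx over Myc_p53) of the 6 class I genes that were tested, with 95% intervals from the edgeR fit. The interval of Tapbp lies below 0 and that of Tap1 just above it, before adjustment for the number of genes tested, and the other 4 include 0.

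The immunoproteasome subunits fell into 2 kinds, with Psmb10 present in all lines and Psmb8 and Psmb9 nearly absent. Psmb8 had counts of 4, 0 and 0 in Myc_Utx 2A, 2B and 2D and 3, 60 and 1 in Myc_p53 1, 2 and 3, so that only Myc_p53 2 stood out, with 11.1 CPM. Psmb9 had counts of 14, 1 and 1 in Myc_Utx and 2, 14 and 1 in Myc_p53, which put Myc_Utx 2A (2.79 CPM) beside Myc_p53 2 (2.59 CPM) and the rest at or under the floor. Neither was tested. Psmb10 was at 25.5, 28.6 and 29.4 CPM in Myc_Utx and at 21.5, 28.2 and 20.4 CPM in Myc_p53, with overlapping groups and a log2 fold change of 0.26 (SE 0.19, 95% interval -0.20 to 0.71, edgeR adjusted p = 0.372).

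Compared with the standard subunits they replace, Psmb8 and Psmb9 were minor. Psmb8 reached 2.93% of the level of Psmb5 per kilobase in Myc_p53 2 and at most 0.241% in the other lines. Psmb9 reached 1.08% of the level of Psmb6 in Myc_Utx 2A and 0.635% in Myc_p53 2, and was between 0.0595% and 0.119% elsewhere. Psmb10 was a sizeable share of Psmb7, at 39.3%, 38.3% and 40.7% in Myc_Utx 2A, 2B and 2D and 35.5%, 23.9% and 23.5% in Myc_p53 1, 2 and 3. The 3 Myc_Utx lines were above the 3 Myc_p53 lines, with Myc_p53 1 close to them. The mean log2 ratio of Psmb10 over Psmb7 was -1.34 ± 0.04 (SD, n = 3) in Myc_Utx and -1.88 ± 0.34 (SD, n = 3) in Myc_p53. Neither gene of that pair differed between the groups past the threshold on its own, Psmb7 having a log2 fold change of -0.32 (edgeR adjusted p = 0.377). For Psmb5, 57.1% of 50-base windows recur in transcripts of other genes, mostly pseudogenes.

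**Figure D3:**
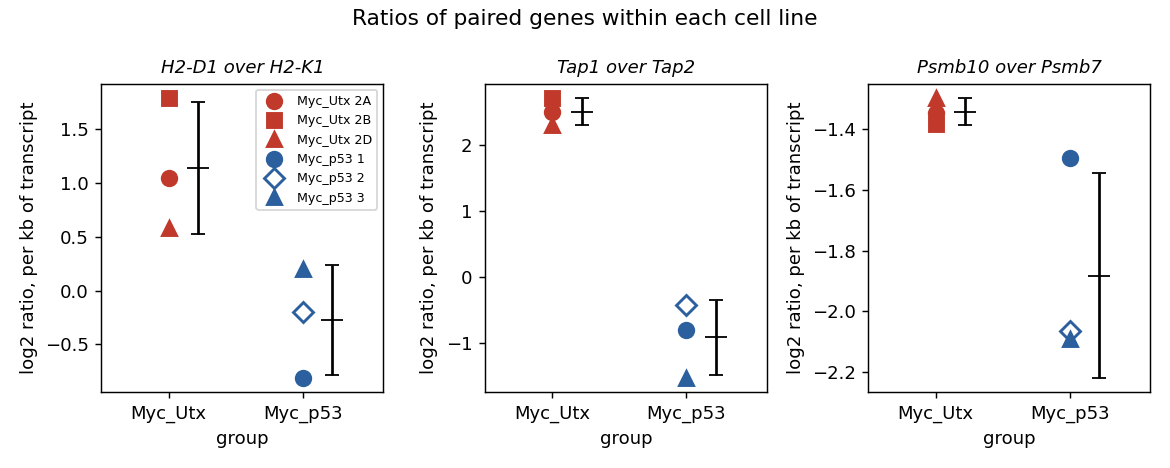
Ratios of H2-D1 over H2-K1, Tap1 over Tap2 and Psmb10 over Psmb7 within each cell line, per kilobase of transcript on a log2 scale, by group, with black bars for the mean and SD of 3 lines. In all 3 panels the Myc_Utx points lie above the Myc_p53 points, and the mean difference is 1.41, 3.42 and 0.54. The first 2 pairs were chosen after their values were seen, and the other 4 ratios computed overlapped between the groups.

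Much of the variation in the class I set came from Myc_p53 2. That line had the highest level of the 6 lines for H2-K1, H2-D1, B2m, Tap2, Tapbp, Psmb8 and Nlrc5, or 7 of 10 genes. Among the members tested it was 4 of 6, whereas 21.3% of all genes tested were highest there. The other Myc_p53 lines were the highest for 0 members, and Tap1, Psmb9 and Psmb10 peaked in Myc_Utx lines. Against the higher of the other Myc_p53 lines, the level in Myc_p53 2 was 2.07-fold for H2-K1, 3.17-fold for H2-D1, 1.33-fold for B2m, 5.20-fold for Tap2, 11.3-fold for Tap1 and 1.32-fold for Tapbp. These are values of a single line, with no replicate of it.

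Correlations among the members over the 6 lines, given as a description with no test, were computed with and without that line. The highest were between B2m and Nlrc5 (r = 0.95) and between Psmb8 and Nlrc5 (r = 0.90). Over the 5 lines without Myc_p53 2, r was 0.95 for B2m with Nlrc5 and -0.06 for Psmb8 with Nlrc5, where Nlrc5 had 6 counts or fewer. The lowest over the 6 lines was between Tapbp and Psmb10 (r = -0.45), and without Myc_p53 2 it was -0.90. Of 11504 other genes tested, 104 had r above 0.9 with the mean standardised level of the 6 members tested. The 5 most alike were Sugt1 (r = 0.996), Itm2b (r = 0.992), Tle3 (r = 0.986), Poldip3 (r = 0.980) and Acadvl (r = 0.979), and the 3 least alike were Lin54 (r = -0.995), Zfp850 (r = -0.995) and Dtnb (r = -0.986). Without Myc_p53 2, r was 0.698 to 0.981 for the 5 most alike and -0.921 to -0.829 for the 3 least alike. All points are single libraries that share the group difference.

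The remaining class I heavy chains followed the same line. Of 20 further class I and class I-like genes in the table, 7 had at most 3 counts in every line. Of the other 13, 12 were highest in Myc_p53 2, but H2-Q6 and H2-Q7 exceeded 3 counts only in that line, which fixed their place in advance. Each of the 8 genes that were tested was highest in Myc_p53 2, beside 21.3% of all genes tested. Of these 8, 0 passed the adjusted p in either direction, and their median log2 fold change was -0.69. Mr1, which presents vitamin metabolites to MAIT cells, was at 1.99, 0 and 0 CPM in Myc_Utx 2A, 2B and 2D and at 5.21, 12.2 and 3.71 CPM in Myc_p53 1, 2 and 3 (edgeR adjusted p = 0.108). H2-T23, which encodes the NKG2A ligand Qa-1, was at 3.79, 0.936 and 0.891 CPM in Myc_Utx and at 5.85, 20.6 and 3.42 CPM in Myc_p53 (adjusted p = 0.114). Chosen after their values were seen, H2-Q4 had 45 counts, H2-Q6 24, H2-Q7 35 and H2-T10 11 in Myc_p53 2, and no other line had more than 14 counts of any of them. In Myc_Utx these 4 genes had at most 2 counts in any line. H2-Q6 and H2-Q7 were among the genes that share most windows with H2-D1, and H2-T23 among those for H2-K1. Some reads of H2-D1 or H2-K1 may thus have been counted for H2-Q6, H2-Q7 or H2-T23, which was not tested.

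Genes for peptide supply and loading, chaperones and trimming enzymes, were tested in full. Of 15, 2 were higher and 0 lower in Myc_Utx, where 6.99% and 7.69% of all genes were called, with a median log2 fold change of 0.21. Bcap31, an endoplasmic reticulum cargo receptor for class I molecules, was at 142, 125 and 135 CPM in Myc_Utx and at 98.8, 82.5 and 85.3 CPM in Myc_p53 (log2 fold change 0.59, SE 0.12, edgeR adjusted p = 0.0287). Thop1, a cytosolic peptidase that degrades peptides, was at 211, 238 and 272 CPM in Myc_Utx and at 176, 148 and 150 CPM in Myc_p53 (log2 fold change 0.60, SE 0.14, adjusted p = 0.0366). Both rose in all 3 Myc_Utx lines relative to all 3 Myc_p53 lines. With offsets for transcript length, Bcap31 fell to 0.33 and did not pass (adjusted p = 0.112).

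Among 11 standard catalytic, activator and assembly subunits of the proteasome, 1 was higher and 0 were lower in Myc_Utx, beside 6.99% and 7.69% of all genes, and the median log2 fold change was -0.07. The gene that rose was Pomp, which assists proteasome assembly, with 123, 147 and 146 CPM in Myc_Utx and 96.1, 102 and 101 CPM in Myc_p53 (log2 fold change 0.47, SE 0.11, edgeR adjusted p = 0.0427). Its call was lost under total-count scaling (adjusted p = 0.0537), without the filter (adjusted p = 0.0649), with at least 10 counts in every line (adjusted p = 0.0513) and in all 6 fits that left out a line.

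Of 16 transcription factors that act on class I promoters, 1 was higher and 1 lower in Myc_Utx, beside 6.99% and 7.69% of all genes. Their log2 fold changes were above 0 for 5 and below 0 for 11, with a median of -0.31. Irf1, an interferon-inducible activator of class I and immunoproteasome genes, was at 28.5, 22.7 and 21.4 CPM in Myc_Utx 2A, 2B and 2D and at 41.1, 65.2 and 73.3 CPM in Myc_p53 1, 2 and 3. All Myc_Utx lines were below all Myc_p53 lines (log2 fold change -1.31, SE 0.26, edgeR adjusted p = 0.0272). Nfyb, a subunit of the CCAAT-binding factor NF-Y, was higher in Myc_Utx, with 55.8, 57.5 and 49.7 CPM against 25.8, 26.5 and 36.6 CPM (log2 fold change 0.87, SE 0.19, adjusted p = 0.0321).

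Receptors and kinases of the interferon pathway were lower in Myc_Utx where they differed. Of 8 tested, 0 were higher and 3 lower, where 6.99% and 7.69% of all genes were called, and all 8 log2 fold changes were below 0, with a median of -0.35. Ifngr1, the ligand-binding chain of the interferon gamma receptor, was at 32.9, 31.8 and 28.7 CPM in Myc_Utx and at 51.5, 55.0 and 81.1 CPM in Myc_p53 (log2 fold change -1.01, SE 0.21, edgeR adjusted p = 0.0308). Jak2, a kinase bound to that receptor, was at 40.3, 26.4 and 26.1 CPM in Myc_Utx and at 59.3, 55.8 and 69.3 CPM in Myc_p53 (log2 fold change -0.99, SE 0.22, adjusted p = 0.0344). Jak1, which serves both interferon receptor types, was at 138, 142 and 148 CPM in Myc_Utx and at 192, 290 and 227 CPM in Myc_p53 (log2 fold change -0.73, SE 0.16, adjusted p = 0.0363), and with offsets for transcript length its adjusted p was 0.0754.

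Over the 6 lists of other pathway genes, 58 were tested, 4 were higher and 4 lower in Myc_Utx, a share near the 6.99% and 7.69% of all genes. Genes of MHC class II presentation were not detectable beyond the floor in most cases, since 6 of 8 had at most 3 counts in every line, none was tested, and the highest value was 0.713 CPM.

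**Figure D4:**
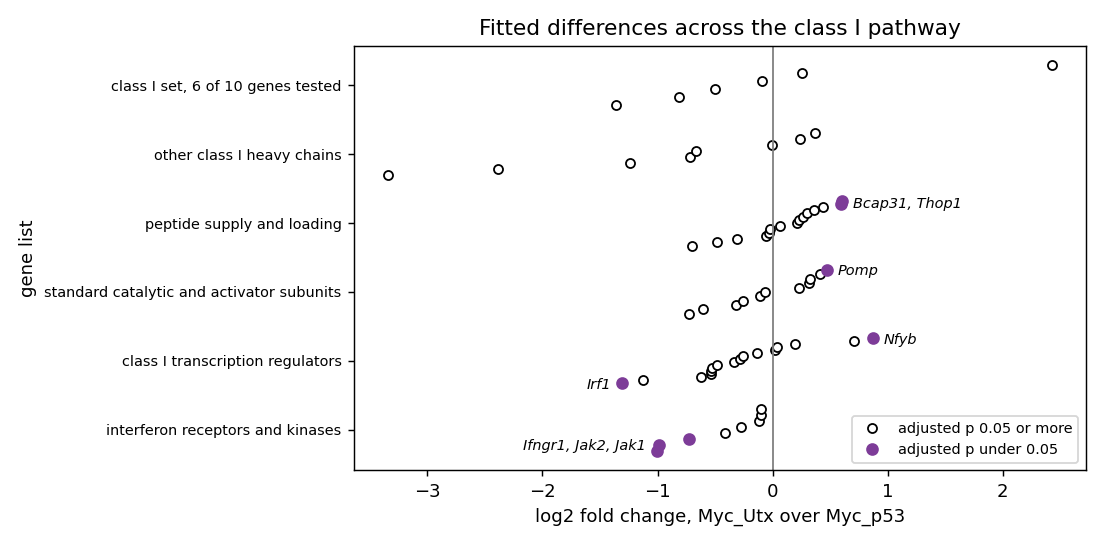
Fitted log2 fold change (Myc_Utx over Myc_p53) of each gene tested, by list, with filled points for an edgeR adjusted p under 0.05. Irf1, Ifngr1, Jak2 and Jak1 lie to the left of 0 among the filled points, and Bcap31, Thop1, Pomp and Nfyb to the right.

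Macrophages also carry class I, and the macrophage and leukocyte markers were lower in Myc_Utx in sum. Of 14 listed, 6 were tested, and Csf1r, Lyz2, C1qa, C1qb and C1qc, or 5, were lower in Myc_Utx, beside 7.69% of all genes. Each of these 5 had at most 5 counts in any Myc_Utx line and passed the filter on low counts only through Myc_p53. Their direction was thus fixed by the filter, and the 7.69% is not a like measure for them. Cd68, also tested, overlapped between the groups and did not pass (log2 fold change -0.76). Its counts were 14, 21 and 24 in Myc_Utx and 65, 18 and 48 in Myc_p53. In Myc_Utx, Cd68 held most of the summed counts of the list, which were 14, 33 and 25. The 14 genes summed to 2.79 to 6.18 CPM in Myc_Utx and to 102, 41.0 and 111 CPM in Myc_p53 1, 2 and 3. Of the Myc_p53 lines, Myc_p53 2 had the lowest sum. Of the 14 genes, 5 had at most 3 counts in every line, among them Ptprc (CD45), which defines leukocytes, and Clec4f, at 0 in all. All 9 lymphocyte markers had at most 3 counts. In bulk libraries, fewer cells of a type and less RNA per cell cannot be told apart. The part of these markers in the levels of Tapbp, B2m, Irf1, Ifngr1, Jak1 and Jak2 was not tested.

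Markers of other lineages varied among lines as well. Fibroblast markers summed to 1946 to 2678 CPM in Myc_Utx, 3145 CPM in Myc_p53 2, 496 CPM in Myc_p53 3 and 35.6 CPM in Myc_p53 1, the collagen gene Col3a1 making up most of the first 4 sums. The fitted log2 differences were -2.37 for Col1a1 (edgeR adjusted p = 0.251) and -1.34 for Col1a2 (adjusted p = 0.559). The other 2 tested went the other way, with 1.23 for Col3a1 (adjusted p = 0.620) and 0.997 for Pdgfrb (adjusted p = 0.507). Bile duct markers summed to 153 CPM in Myc_p53 2 and to 510 to 1462 CPM in the other lines, where Spp1 made up most of the sum. Spp1 was at 611, 1362 and 449 CPM in Myc_Utx and at 997, 70.8 and 1018 CPM in Myc_p53 1, 2 and 3. Krt19 in Myc_p53 2 (60.2 CPM) lay above the Myc_Utx lines (46.7, 4.68 and 28.7 CPM) and below Myc_p53 1 and 3 (330 and 352 CPM). For Krt19, a keratin of bile duct cells, the log2 difference was -3.22 (adjusted p = 0.0653), and for Sox9, a duct transcription factor, 0.94 (adjusted p = 0.131). Myc_p53 2 thus differed from the other Myc_p53 lines in the fibroblast and bile duct sums, in Col3a1, Spp1 and Krt19, and in most class I genes at once. Its Col1a1 (144 CPM) lay between that of Myc_p53 1 (3.32 CPM) and Myc_p53 3 (236 CPM). Its Sox9 (20.6 CPM) was close to that of Myc_p53 3 (21.0 CPM). The part of the markers in the class I levels was not tested.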

How the data were processed

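RNA of 6 primary liver tumour cell lines was sequenced, 3 labelled Myc_Utx and 3 Myc_p53. What the authors deposited are raw counts for each Ensembl gene, before any normalisation, and a transcript length. Per the labels, reads were trimmed with Trimmomatic 0.36, aligned with STAR 2.5.3a to GRCm38/mm10 and counted with featureCounts 1.6.3, while the methods name a human build, HTSeq and Mll3-edited lines. The labels were followed. Whether counting used strand, and how reads with several matches were treated, is not given in the sources used here.

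The comparison was run in edgeR 4.0.16 under R 4.3.3, using filterByExpr (minimum count 10), TMM and the quasi-likelihood F test, adjusted over all genes tested. Dividing each log2 fold change by the root of its F statistic gave the standard error, and intervals cover 95%. CPM are counts per 1000000 of the scaled library, and ratios were taken per kilobase of the deposited transcript length. That length can differ from the longest transcript searched for shared windows, for example 1872 against 966 bases for Psmb6, and ratios per kilobase depend on it. Psmb8 over Psmb5 is given as a percent, because counts of 0 have no logarithm. Levels of 3 counts or fewer were read as at the floor. Gene positions came from GENCODE M21, promoters from RefSeq. The fit was tested on simulated data.

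The members and all gene lists were chosen with earlier results of these data known. Named are all members, in every other list the genes past the adjusted p or else the 2 with the largest log2 fold change, the standard subunits Psmb5, Psmb6 and Psmb7, Kdm6a and Kmt2c, and the genes most and least like the members. A result that this rule also covers is not reported here. Genes named outside this rule are marked as such, apart from Ptprc, Clec4f, Cd68, Col3a1, Pdgfrb and Spp1 among the markers and genes that overlap a member or Psmb7. Alternatives were DESeq2 1.42.0 and its size factors, total counts, other filters, offsets for transcript length (natural splines with 5 degrees of freedom, MASS 7.3.60.0.1), unadjusted p and leaving out each line. P-values measure the spread between these lines.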

Additional observations from a re-analysis of the deposited data

How the results depend on the processing

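For members past the adjusted p, the counts were 0 higher and 0 lower with DESeq2 size factors, total counts, no filter, at least 10 counts in every line and transcript-length offsets. DESeq2 gave 1 lower (Tapbp), and an unadjusted p gave 1 higher (Tap1) and 1 lower (Tapbp). Leaving out each line in turn gave 0 to 1 higher and 0 to 1 lower, the 1 being Tap1 without Myc_p53 2 (7.01% of all genes higher) and B2m without Myc_p53 1 (5.32% of all genes lower). Members whose groups did not overlap numbered 2, also with DESeq2 size factors, 3 with total counts, no filter or transcript-length offsets, 1 where at least 10 counts were required in every line, which dropped Tap1, and 2 to 4 with a line left out. The log2 fold change of H2-D1 ranged from -0.44 to 0.82 with a line left out, reversing to 0.13 without Myc_Utx 2B and to 0.82 without Myc_p53 2, and never passed.

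Of the other pathway genes, 4 were higher and 4 lower. The lower count was 7 with at least 10 counts in every line (7.41% of all genes lower), 10 with DESeq2 (13.2%) and 15 at an unadjusted p (18.3%), and the higher count was 3, 5 and 6. With a line left out, 0 to 3 were higher and 0 to 5 lower. Both were 0 without Myc_Utx 2A, 2B or 2D or Myc_p53 3, fits that called few genes of any kind (3 higher and 1 lower of 12064 without Myc_Utx 2A), so that none of the 8 calls among these genes held in every fit. The log2 fold changes stayed in direction, for example -1.52 to -1.14 for Irf1, 0.54 to 0.67 for Bcap31 and 0.77 to 1.05 for Nfyb, in fits with fewer lines.

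The difference in log2 ratio ranged from 0.44 to 0.73 for Psmb10 over Psmb7, from 1.08 to 1.69 for H2-D1 over H2-K1 and from 3.11 to 3.67 for Tap1 over Tap2 with a line left out, the last pairs having been added after the data were seen. Length scaling cancels in these differences. No paired analysis was possible because Myc_Utx and Myc_p53 lines carry no number in common. With 3 lines a group and 5 to 6 counts of Tap1 in 2 Myc_p53 lines, depth limits Tap1, Tap2, Psmb8, Psmb9 and Nlrc5 most.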
